A study of Mus musculus with 21 samples.

Results

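The genes followed here, 8 in all and listed by role, were Ung, Neil1, Apex1, Apex2, Hmces, Msh6, Exo1 and Polh. They were chosen by name as genes of somatic hypermutation and of base excision or mismatch repair, and all were among the 14493 genes of the count matrix. Counts came from 6619 single B-lineage cells of mouse lymph nodes. Each of 6 mice had been given 100 µg of the hapten-carrier antigen NP-KLH in Sigma Adjuvant System (SAS) under the skin at the tail base. One oral dose of 5 mg tamoxifen, given 6 or more days later, then let a Cre-ERT2 recombinase mark responding cells with eYFP. Draining nodes were taken on day 10, 16 or 22 of the primary response, with 2 mice per day. The sort kept IgD-negative eYFP-positive cells, and plasma cells (PC) and other cells (non-PC) were captured in separate wells after the mice had been pooled. The strain, age and sex of the mice and the promoter driving the recombinase are not given in the sources used here, and no group lacked immunisation or tamoxifen. Each cell carried a state named by the authors, namely dark zone (DZ), light zone (LZ), cells passing from LZ to DZ (LZtoDZ), memory precursors (preMem), plasma cell precursors (prePC) or PC.

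In germinal centres, the enzyme AID turns cytosines of antibody genes into uracils. Base excision repair removes the uracil with a glycosylase, cuts the resulting abasic site with an endonuclease and refills the gap. Mismatch repair instead recognises the U:G pair, removes a stretch of the strand and lets an error-prone polymerase fill it, which spreads mutations to neighbouring bases. AID acts mainly in the dark zone, where cells divide, and selection by antigen and T cells takes place in the light zone.

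The upstream sequence of the members whose levels moved most in opposite ways between states is shown here, so that their promoters can be compared. Each line is the 100 bases before the RefSeq start site on build GRCm38.p6, read in the direction of the gene, and capitals mark the E-box letters CACGTG. Hmces lies at chr6:87913876-87913975 on the plus strand, Neil1 at chr9:57148306-57148405 on the minus strand and Apex1 at chr14:50924849-50924948 on the plus strand. The Hmces gene in GENCODE M21 starts at 87913935, inside its stretch, so the RefSeq and GENCODE starts of Hmces differ.
Hmces: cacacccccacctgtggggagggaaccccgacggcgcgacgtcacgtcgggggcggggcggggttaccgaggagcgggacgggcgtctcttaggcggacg
Neil1: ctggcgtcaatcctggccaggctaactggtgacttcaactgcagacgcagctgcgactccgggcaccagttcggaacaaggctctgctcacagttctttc
Apex1: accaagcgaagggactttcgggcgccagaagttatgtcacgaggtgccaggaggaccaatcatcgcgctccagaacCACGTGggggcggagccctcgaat
The table of promoters, which spans 250 bases before to 50 after each start, held 6 of the 8 members, and Apex2 and Exo1 were not matched. CACGTG was searched on both strands and occurred in 7.15% of 32851 promoters, and among the 6 members only in that of Apex1. Apex1 held 3 copies, beginning at positions -24, 1 and 22 from the start, and 29 of the 32851 promoters (0.0883%) held at least 3. The E2F letters TTTCCCGC, TTTCGCGC, TTTGCCGC and TTTGGCGC were in 2.27% of promoters and, among the members, only in Msh6 (position 16). The CCAAT box was in 37.4% of promoters and in those of Apex1 and Msh6, and the letters TTTGAA were in 17.9% and in none of the 6. Only the first of the 3 copies in Apex1 lies in the stretch shown. In the members none of these motifs overlapped another, and a match is only a match of letters.

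The genes lie at separate places of the GRCm38 genome (GENCODE M21). Ung, the main nuclear uracil glycosylase, is at chr5:114130386-114139323, and Neil1, a glycosylase for oxidised bases, at chr9:57142800-57148305. Apex1, the main endonuclease for abasic sites, is at chr14:50924968-50927139, its relative Apex2 at chrX:150519519-150589868, and Hmces, which forms a protective link with abasic sites in single-stranded DNA, at chr6:87913935-87936629. Msh6, a subunit of the complex that recognises mismatches, is at chr17:87975062-87990892, and Exo1, the exonuclease that removes the strand, at chr1:175880581-175913489. Polh, the error-prone polymerase eta, is at chr17:46171355-46202645. For 4 members a gene on the other strand overlaps, and the strand setting of the counting is not given in the sources used here. Apex1 (6502 UMIs in all) shares 1072 bases with Tmem55b (2494 UMIs). Apex2 (944 UMIs) shares 1640 bases with Pfkfb1 (235) and 23264 with Alas2, for which no counts were used here, Msh6 (2657) shares 34 bases with Fbxo11 (674), and Hmces (34368) shares 525 with Gm26636 (16).

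The mice gave between 573 and 1619 cells and between 6260885 and 18599219 unique molecules (UMIs) each. The state names held 2382 DZ, 3194 LZ, 232 LZtoDZ, 522 preMem, 47 prePC and 242 PC cells. Median depth ranged from 5356.5 UMIs per cell in preMem through 7784.5 in LZ and 9310 in DZ to 22505 in LZtoDZ. Of the PC cells 234 of 242 came from the PC well, whereas 3116 of 3194 LZ cells came from the other. In all, 6 barcodes occurred in both wells. The names were checked against markers. In DZ against LZ all 6 dark zone markers were higher and all 6 tested light zone markers lower. The dark zone markers were Cxcr4, Foxp1, Gcsam, Mki67, Ccnb1 and Aurka, and the last of these, from Mki67 on, mark dividing cells. Of 20 G2 and M phase genes 19 were higher in DZ as well and 0 lower. Within the cell cycle phases G1, S and G2M called by the authors, 3, 3 and 5 of the 6 dark zone markers were higher and 0 lower. The 6 light zone markers were lower in each phase. All 7 plasma cell markers were higher in PC than in LZ, and all 6 memory precursor markers were higher in preMem. In prePC the 3 tested plasma cell markers were higher than in LZ, but so were all 6 memory precursor markers, so that name is only in part borne out. States and phases had been named by the authors from the same cells' expression by a rule not given in the sources used here, and the members may have entered it. Differences between states therefore describe the named states and are not independent of them. Levels are CPM, a gene's UMIs relative to all UMIs of the sum of cells of 1 mouse and state, scaled within each fit, so a gene's level differs slightly between fits. In such sums, fewer expressing cells and less RNA per cell cannot be told apart. The share of all genes whose mice do not overlap between states was not computed, so a lack of overlap only describes the gene named.

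Between the zones, 5 of the 8 members differed over all cells. The abasic-site binder Hmces, the glycosylase Neil1 and the polymerase Polh were higher in DZ, by 2.29-fold, 1.83-fold and 2.48-fold. Apex1 and Ung, which cut and make abasic sites, were 1.59-fold and 1.47-fold lower in DZ. Over all 8234 genes tested, 19.9% differed between the zones, 9.35% higher and 10.5% lower in DZ, beside 3 and 2 of the 8 members. The median log2 difference was 0.12 over the members and 0.00 over all genes.

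Hmces stood at 702 CPM in its lowest, 764 in its median and 788 in its highest mouse in DZ, against 309, 323 and 369 in LZ. The zones did not overlap for Hmces, and the log2 difference was 1.20 ± 0.17 (SE, edgeR adjusted p = 6.6e-06). Neil1 had 381, 432 and 448 CPM in DZ against 216, 233 and 247 in LZ, again with no overlap, a log2 difference of 0.87 ± 0.13 and adjusted p = 2.1e-05. Polh was at 60.0, 71.7 and 74.0 CPM in DZ and 24.8, 27.1 and 32.8 in LZ. The lowest DZ value of Polh was thus well above its highest LZ value, with a log2 difference of 1.31 ± 0.12 and adjusted p = 1.4e-08.

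Apex1 went the other way, with 49.8, 54.7 and 64.6 CPM in the lowest, median and highest mouse in DZ and 72.6, 91.1 and 95.2 in LZ. Its zones did not overlap either (log2 difference -0.67 ± 0.12, adjusted p = 0.00023). Tmem55b, which shares bases with Apex1 on the other strand, had 845 UMIs in DZ and 1241 in LZ, and its part in the Apex1 counts was not tested. Ung had 31.2, 35.7 and 38.4 CPM in DZ against 46.8, 53.2 and 55.2 in LZ, with every DZ mouse below every LZ mouse (log2 difference -0.56 ± 0.09, adjusted p = 7.3e-05). The remaining members missed the threshold. Apex2 had a log2 difference of 0.29 (95% interval 0.06 to 0.52, adjusted p = 0.073) and was higher in DZ in 6 of 6 mice. Msh6 (-0.06, interval -0.26 to 0.15) and Exo1 (-0.21, interval -0.50 to 0.08) had overlapping zones.

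**Figure D1:**
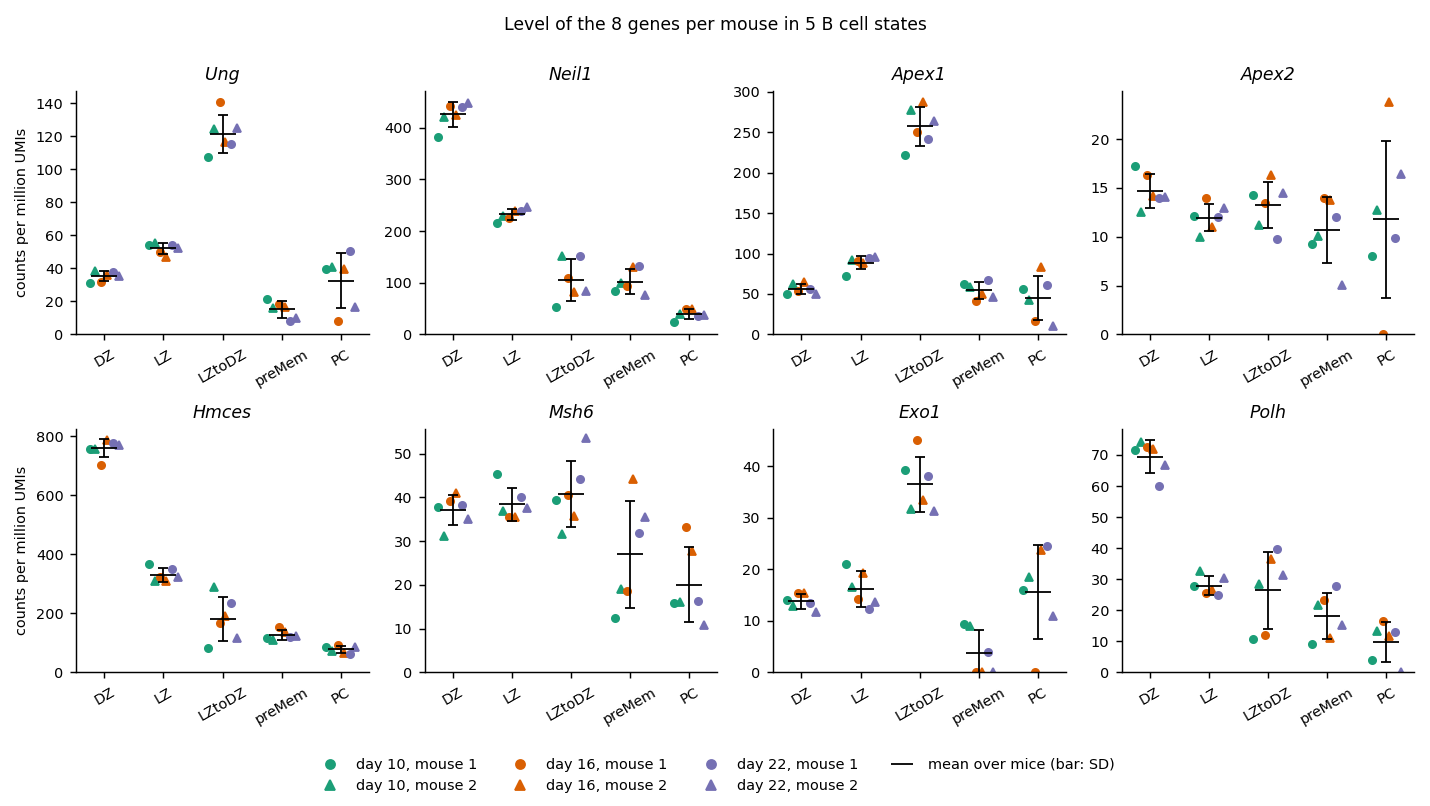
CPM (linear axes from 0, 1 panel per gene) in 5 states for each of the 6 mice, with colour for day, symbol for mouse, and mean and SD in black. Hmces, Neil1 and Polh are highest in DZ, whereas Ung, Apex1 and Exo1 are highest in LZtoDZ, where no mouse of these 3 genes overlaps DZ or LZ.

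Markers of other cells also moved between the zones. The summed level of the 8 T cell markers was 43.2 to 84.2 CPM in DZ and 101 to 156 in LZ, and Cd4 was at 0 in DZ. The 2 tested ones, Lck and Lat, were lower in DZ. The 6 myeloid markers summed to 6.43 to 32.8 CPM in DZ and 9.67 to 131 in LZ, with 3 of 3 tested lower in DZ, and the 4 naive B cell markers to 44.7 to 104 and 164 to 343 CPM. The part of such cells in the zone differences was not tested.

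The zones differ in their cell cycle makeup, so DZ was also compared with LZ within each phase as called by the authors. DZ held 37.0% ± 3.91 (SD, 6 mice) G2M cells against 13.6% ± 3.29 in LZ. The zones still differed in cycle genes within a called phase. Within G2M, 10 of 20 G2 and M phase genes were higher in DZ and 0 lower, and 8 of 20 S phase genes were lower and 0 higher. Within G1 and S, 2 and 3 of the 20 G2 and M phase genes were higher and 0 lower. The part of this shift in the differences within phases was not tested. Hmces, Neil1 and Polh were higher in DZ in G1, in S and in G2M, and each in 6 of 6 mice in every phase. The background was 11.4% of 8819 genes in G1 (5.26% higher, 6.17% lower in DZ), 9.45% in S (4% and 5.44%) and 11.3% in G2M (5.51% and 5.76%). Hmces differed by 0.97 ± 0.14, 0.92 ± 0.14 and 1.17 ± 0.14 on the log2 scale in G1, S and G2M, against 1.20 over all cells. Neil1 differed by 0.81 ± 0.13, 0.78 ± 0.13 and 1.02 ± 0.13. Polh differed by 0.74 ± 0.14, 0.75 ± 0.13 and 0.93 ± 0.11 within the phases, against 1.31 ± 0.12 over all cells. Apex2 (0.49, 0.32 and 0.07), Msh6 (-0.20, 0.07 and 0.32) and Exo1 (-0.52, -0.10 and -0.51) passed in none of the 3 phases.

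Apex1 was lower in DZ in each phase, in 6 of 6 mice, by -0.58 ± 0.12 in G1, -0.40 ± 0.11 in S and -0.81 ± 0.12 in G2M on the log2 scale. Its call in S (adjusted p = 0.010) was lost without either mouse of day 22 (log2 difference -0.37 without mouse 1 and -0.32 without mouse 2) and with cells thinned to equal depth (-0.30). For Ung the zone difference passed only in G1 (-0.72 ± 0.21, adjusted p = 0.013), where DZ was higher in 2 of 6 mice. That call was lost without mouse 1 of day 16 (-0.61) or either mouse of day 22 (-0.51 and -0.55), and with thinned cells (-0.59). In S, where most Ung counts lay, the log2 difference was -0.18 (95% interval -0.41 to 0.05), and in G2M 0.54 (-0.08 to 1.15). Ung and Exo1 belong to the S phase list shipped with Seurat, the authors' tool, and may have entered the phase call, on which their values within phases rest. The change of the zone difference from G1 to S was tested for the other 6 members and lay between -0.17 and 0.26 on the log2 scale. None of these 6 was called by edgeR, and 0 of 8819 genes (0%) were, with 0 members and 414 genes at an unadjusted p under 0.05. DESeq2's own test called 0 of these members and 89 of the 2151 genes to which it gave an adjusted p. The intervals of these changes ran from -0.69 to 0.65 over the 6 members.

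**Figure D2:**
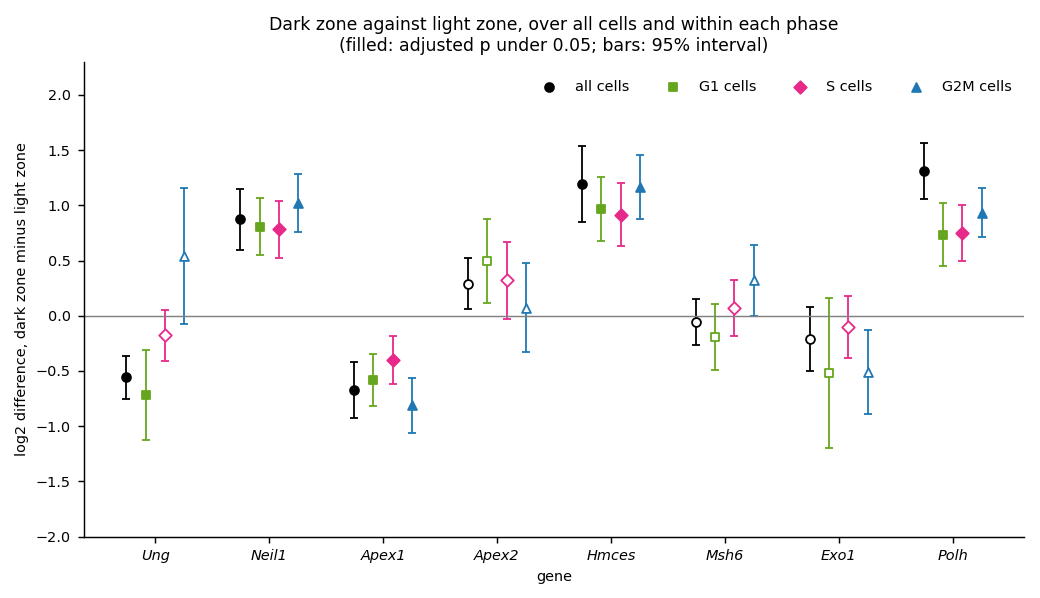
Log2 difference DZ minus LZ for each gene, over all cells (black) and within G1, S and G2M cells, with 95% intervals; filled symbols passed the adjusted p of 0.05. Hmces, Neil1 and Polh lie above 0 and Apex1 below 0 in all 4 comparisons, while Ung passes below 0 over all cells and, among the phases, in G1 alone.

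Between phases of the same zone, Msh6, Apex1, Ung and Exo1 had their highest mean in S and Polh and Hmces in G2M, whereas Neil1 had its lowest mean in S. The phase levels of Ung and Exo1, as genes of the S phase list, are described with no test. In DZ, Ung stood at 11.7 ± 5.15 CPM (SD, 6 mice) in G1, 106 ± 5.24 in S and 6.77 ± 2.06 in G2M, and in LZ at 17.9 ± 2.88, 120 ± 11.7 and 4.43 ± 2.65. Exo1 stood at 2.81 ± 1.15, 29.4 ± 6.80 and 11.3 ± 1.19 CPM in the same phases of DZ, and at 3.91 ± 1.54, 31.1 ± 6.24 and 16.1 ± 3.13 in LZ. For both genes no mouse overlapped between S and either other phase within a zone.

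Of the 6 members tested between phases, Msh6, Apex1 and Polh were higher in S than in G1 in both zones. The background was 28.9% of genes in DZ (15.7% higher, 13.2% lower) and 29.7% in LZ (17% and 12.8%). Msh6 rose from 24.95, 29.3 and 37.6 CPM (lowest, median, highest mouse) in G1 to 49.3, 57.8 and 61.3 in S of DZ, a log2 difference of 0.90 ± 0.15 (adjusted p = 2.2e-06), and by 0.64 ± 0.13 in LZ. Apex1 rose by 0.65 ± 0.12 in DZ and 0.46 ± 0.10 in LZ, and Polh by 0.49 ± 0.13 and 0.48 ± 0.13. Neil1 fell by 0.33 in S of DZ (SE 0.13, adjusted p = 0.041), and its value in LZ was -0.31 (adjusted p = 0.058). The Neil1 call in DZ was lost without mouse 1 of day 16 (-0.30) or either mouse of day 22 (-0.32 without each), with no filter on low counts (-0.33) and without the mouse block (-0.34). Its value in LZ passed with DESeq2's size factors (-0.34), with DESeq2's own test (-0.34) and with no filter on low counts (-0.37). It also passed with at least 30 cells per sum (-0.30), without immunoglobulin genes (-0.32) and without mouse 2 of day 10 (-0.40). Hmces and Apex2 did not pass in either zone, with log2 differences of 0.04 and 0.16 in DZ and 0.09 and 0.33 in LZ.

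In G2M the polymerase Polh reached its highest level. In DZ it had 27.2, 31.4 and 37.1 CPM (lowest, median, highest mouse) in G1 and 101, 114 and 123 in G2M, a log2 difference of 1.84 ± 0.12 (adjusted p = 5.3e-19), and in LZ the difference was 1.64 ± 0.13. Hmces rose as well, by 0.71 ± 0.14 in DZ and 0.51 ± 0.14 in LZ. The background was 31.4% of genes in DZ (16.1% higher, 15.3% lower) and 33% in LZ (17% and 16%). Apex1 was lower in G2M than in G1 in DZ (-0.44 ± 0.12, adjusted p = 0.0043), a call lost without mouse 1 of day 16 (-0.32). Msh6 was lower in G2M in LZ (-0.47 ± 0.16, adjusted p = 0.019), a call lost without mouse 1 of day 10 (-0.38), mouse 2 of day 16 (-0.40) or mouse 1 of day 22 (-0.47) and with thinned cells (-0.32). Neil1 (-0.21 in LZ) and Apex2 (-0.22 in DZ and 0.20 in LZ) did not pass between G2M and G1 in either zone.

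**Figure D3:**
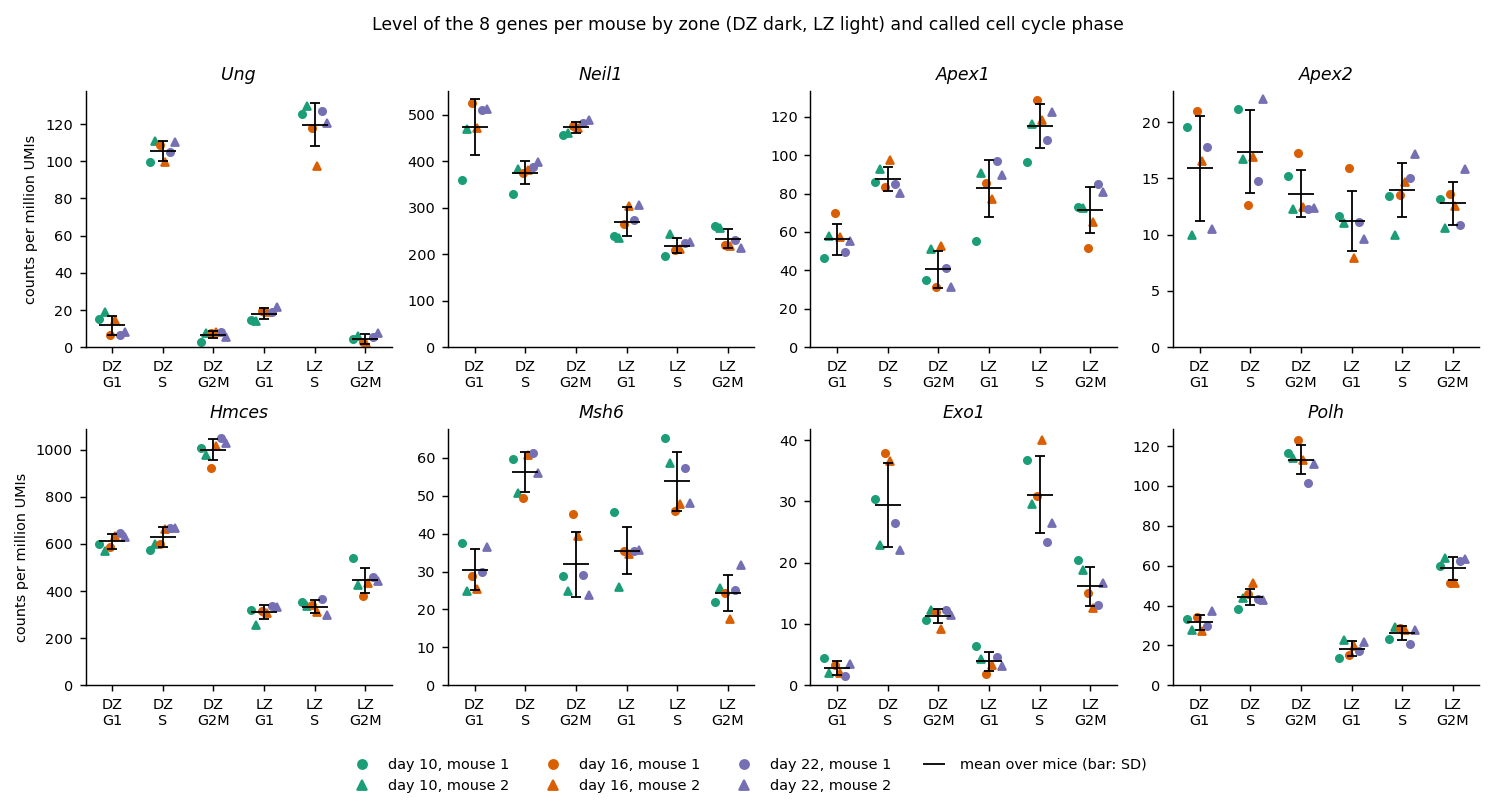
CPM (linear axes from 0) by zone and called phase, 1 symbol per mouse, with mean and SD in black. Ung, Exo1 and Msh6 peak in S cells of both zones and Polh and Hmces in G2M cells, while within each phase Hmces, Neil1 and Polh lie higher in DZ than in LZ.

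LZtoDZ cells, named as passing between the zones, held the highest levels of Apex1, Ung and Exo1 of the 5 states. Apex1 had 222, 257 and 288 CPM in its lowest, median and highest mouse, 2.89-fold above LZ (log2 difference 1.53 ± 0.13, adjusted p = 2.0e-10) and 4.61-fold above DZ. Ung had 107, 120 and 141 CPM, 2.34-fold above LZ (1.22 ± 0.10, adjusted p = 1.2e-10) and 3.44-fold above DZ. Exo1 had 31.3, 35.8 and 45.0 CPM, 2.24-fold above LZ (1.17 ± 0.17, adjusted p = 1.4e-06) and 2.60-fold above DZ. In all 3 genes the 6 mice lay above every mouse of LZ and DZ, and the share of all genes placed so was not computed. At the same time Neil1 and Hmces were lower than in LZ, with log2 differences of -1.14 ± 0.14 and -0.88 ± 0.17, and lower than in DZ by 4.04-fold and 4.20-fold. Neil1 is also on the list of germinal centre B cell markers. Of the 8 other markers on it, 6 were lower than in LZ and 0 higher, and within S 7 were lower and 0 higher. Polh was 2.36-fold lower than in DZ and did not pass against LZ (0.07, 95% interval -0.28 to 0.43). Msh6 (0.08 against LZ, 0.14 against DZ) and Apex2 (0.14 and -0.15) passed against neither zone. The background was 54.9% of genes against LZ (28.5% higher, 26.5% lower) and 54.2% against DZ (27.6% and 26.6%), so the 5 and 6 members called stand near the share of all genes. Against LZ, 2 of 6 dark zone markers were higher and 1 lower, and 3 of 6 tested light zone markers higher and 2 lower. The T cell markers summed to 52.7 to 108 CPM in LZtoDZ, with Cd3e, Cd3g, Cd4 and Cd8a at 0, the myeloid ones to 3.50 to 41.0 and the naive B cell ones to 82.8 to 198 CPM. All 2 T cell and 3 myeloid markers tested and 3 of 4 naive B cell markers were lower than in LZ, and their part in these differences was not tested.

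Hmces varied widely within LZtoDZ, from 82.2 CPM in mouse 1 of day 10 (11 cells) to 289 in mouse 2 of day 10 (52 cells). Of the LZtoDZ cells 66.8% ± 7.29 (SD, 6 mice) were in S, against 32.6% ± 2.23 in LZ, and they were the deepest cells. Within S, in 5 mice, Apex1 was still 2.24-fold above LZ (log2 difference 1.16 ± 0.11) and 2.95-fold above DZ (1.56 ± 0.11). The differences of Ung and Exo1 were smaller within S, at 0.45 ± 0.12 and 0.46 ± 0.16 against LZ and 0.63 ± 0.13 and 0.56 ± 0.16 against DZ, and the phase call may itself have used both genes. With cells thinned to 4727 UMIs, Ung (0.41) and Exo1 (0.36) no longer passed against LZ within S, and Exo1 (0.51) no longer passed against DZ. Exo1 against LZ within S was also lost without mouse 1 of day 16 (0.40), without mouse 1 of day 22 (0.41) and with at least 30 cells per sum (0.47). Hmces and Neil1 stayed lower within S, by -0.63 ± 0.16 and -0.86 ± 0.14 against LZ and -1.55 ± 0.16 and -1.64 ± 0.15 against DZ. Polh was lower than in DZ within S (-0.62 ± 0.15) and did not pass against LZ (0.13). Msh6 (-0.10 and -0.16) and Apex2 (-0.14 and -0.46) did not pass against LZ or DZ within S. Background shares within S were 40.4% against LZ (17.7% higher, 22.7% lower) and 38% against DZ (18% and 20%).

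In memory precursors no member was higher than in LZ and 6 of 8 were lower, beside 36.3% of all genes (17.5% higher, 18.8% lower). Ung had 7.98, 16.4 and 21.7 CPM (lowest, median, highest mouse), 3.34-fold below LZ (log2 difference -1.74 ± 0.18, adjusted p = 2.1e-08). Exo1 had 0 CPM in 3 mice and at most 9.30, on 20 UMIs in all, with a log2 difference of -1.36 ± 0.34. Hmces had 110, 121 and 154 CPM, 2.65-fold below LZ, and Neil1 76.2, 96.1 and 132, 2.29-fold below, and for both no preMem mouse reached the lowest LZ mouse. Apex1 was lower by -0.69 ± 0.17 and Msh6 by -0.60 ± 0.18. The Msh6 call was lost without mouse 1 (-0.47) or mouse 2 (-0.38) of day 10 and with thinned cells (-0.23). Polh (-0.61, adjusted p = 0.056) and Apex2 (-0.09, adjusted p = 0.86) did not pass.

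Memory precursors were 91.2% ± 3.10 G1 cells (SD, 6 mice), and 20 of 20 S phase genes were lower there than in LZ. Within G1, 9 of the 20 were still lower and 0 higher, and their link with the members was not tested. When G1 cells alone were compared, Neil1 (-1.38 ± 0.15), Hmces (-1.32 ± 0.16) and Apex1 (-0.63 ± 0.15) remained lower, beside 22.4% of all genes (10.5% higher, 11.9% lower). That split of all genes was 927 higher and 1049 lower, and 1170 and 776 with DESeq2's size factors, under which the same 3 members were called. Ung then had 12.9 ± 5.01 CPM in preMem and 17.9 ± 2.88 in LZ (SD, 6 mice), with a log2 difference of -0.45 (95% interval -0.99 to 0.09), and Exo1 3.61 ± 4.31 and 3.91 ± 1.54 CPM. Polh stood at 18.8 ± 7.97 and 18.4 ± 3.60 CPM, a log2 difference of 0.00 (95% interval -0.42 to 0.42). Msh6 (-0.40, interval -0.81 to 0.01), Apex2 (-0.01, interval -0.57 to 0.55) and Exo1 (0.45, interval -0.33 to 1.23) did not pass in G1. The 4 naive B cell markers summed to 636 to 899 CPM in preMem and 164 to 343 in LZ, and their part in these values was not tested.

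In PC no member was higher than in LZ and 6 were lower, beside 59.4% of all genes (27.8% higher, 31.7% lower). Neil1 had 23.95, 39.0 and 50.0 CPM in its lowest, median and highest mouse, 6.09-fold below LZ (log2 difference -2.61 ± 0.17, adjusted p = 5.4e-13), the lowest Neil1 level of the 5 states. Hmces had 63.9, 79.5 and 91.7 CPM, 4.43-fold below LZ, with the mice of both genes well apart from those of LZ. Polh (-1.33 ± 0.27), Msh6 (-0.99 ± 0.19), Apex1 (-0.85 ± 0.17) and Ung (-0.44 ± 0.14) were lower too. The Ung call was lost without mouse 2 of day 10 (-0.42) and with thinned cells (-0.41), and the Msh6 call with thinned cells (-0.52). Apex2 (0.24, 95% interval -0.19 to 0.67) and Exo1 (0.24, interval -0.25 to 0.74) did not pass. The T cell markers summed to 0 to 24.5 CPM in PC, against 101 to 156 in LZ, and their part in these values was not tested. PC and LZ cells were captured mostly in different wells, and the well and the state cannot be told apart for most of these cells.

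The PC levels of Ung and Apex1 differed widely between mice. Ung was at 8.33 and 16.4 CPM in mouse 1 of day 16 and mouse 2 of day 22, which had 12 PC cells each, and between 39.6 and 50.8 in the other 4 mice. Apex1 was at 16.7 and 10.9 CPM in the same mice and between 42.2 and 83.2 in the others. Between 16.7% and 91.7% of a mouse's PC cells were in G1, and the part of this makeup in the spread was not tested. In G1 cells of 5 mice, Apex1 had 7.92, 15.0 and 22.2 CPM (lowest, median, highest mouse) in PC, 4.88-fold below LZ (-2.29 ± 0.25, adjusted p = 5.3e-11), with no mouse overlapping. In S cells of the 3 mice that had enough, Apex1 was at 61.6, 80.3 and 105 CPM in PC. Within G1, Neil1 (-2.56 ± 0.21), Hmces (-1.59 ± 0.19), Polh (-1.62 ± 0.40) and Msh6 (-0.88 ± 0.31) were lower as well, beside 49.7% of all genes (21.8% higher, 27.9% lower) and a median of -0.22 over all genes. Of 20 S phase genes 12 were also lower in PC within G1 and 1 higher, and of 20 G2 and M phase genes 12 were lower and 0 higher. Their link with the members was not tested in G1. Msh6 lost its call there without mouse 2 of day 10 (-0.71) or mouse 1 of day 22 (-0.78) and with thinned cells (-0.83), and Polh, with 7 UMIs in G1 PC cells, with thinned cells (-1.76). Ung (-0.16, 95% interval -0.87 to 0.54), Apex2 (-0.25, interval -1.08 to 0.58) and Exo1 (-1.08, interval -2.64 to 0.47) did not pass in G1.

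Plasma cell precursors were few, with 47 cells, of which 28 were from mouse 2 of day 10, and 1 mouse had none. Against LZ of the same 5 mice, Hmces (-1.88 ± 0.25, adjusted p = 1.1e-11) and Neil1 (-1.78 ± 0.27, adjusted p = 5.3e-09) were lower, beside 8.94% of 7708 genes (3.79% higher, 5.15% lower). Neil1 had 128, 55.6, 31.7, 129 and 101 CPM in mice 1 and 2 of day 10, mouse 2 of day 16 and mice 1 and 2 of day 22, against 246 to 282 in LZ. Hmces had 51.1, 77.2, 84.5, 257 and 83.0 CPM in the same order, against 350 to 420 in LZ. The value of 257 rests on 18 UMIs in 5 cells. Apex1 (0, 136, 116, 171 and 221 CPM) did not pass (log2 difference 0.41, 95% interval -0.11 to 0.93), and the other 5 members had intervals that included 0.

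The order of the states by mean level therefore had 2 main forms. For Hmces and Neil1 it ran DZ, LZ, LZtoDZ, preMem and PC, and each of LZtoDZ, preMem and PC passed against LZ, while the mice of LZtoDZ and preMem overlapped in both genes. For Apex1 it ran LZtoDZ, LZ, DZ, preMem and PC, with DZ, preMem and PC overlapping. For Ung it ran LZtoDZ, LZ, DZ, PC and preMem, with the range of PC spanning DZ and overlapping preMem. In both genes the highest PC mouse also lay above the lowest LZ mouse. Exo1 ran LZtoDZ, LZ, PC, DZ and preMem, with LZ, PC and DZ overlapping and PC also reaching preMem. Polh ran DZ, LZ, LZtoDZ, preMem and PC, and neighbours after DZ overlapped. Msh6 had overlapping mice in all neighbouring states, and Apex2 overlapped in all 5, between 10.7 and 14.7 CPM in the mean. The 8 germinal centre B cell markers other than Neil1 were all lower than in LZ in preMem, PC and prePC. Of all genes 18.8%, 31.7% and 5.15% were lower there. In DZ against LZ, 2 of these markers were higher and 1 lower. Their link with the levels of Hmces and Neil1 was not tested.

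The shares of single cells with a molecule were compared at equal depth. With each cell thinned to 4727 UMIs, 94.97% ± 1.21 of DZ cells held Hmces (SD, 6 mice) against 74.4% ± 1.93 of LZ, 43.8% ± 12.3 of LZtoDZ, 49.1% ± 7.90 of preMem and 20.8% ± 10.3 of PC cells. The mean share of Hmces over mice was thus higher in preMem than in LZtoDZ, unlike its level, within the spread of both. Over all thinned cells the share was 42.0% in preMem and 45.6% in LZtoDZ, so the 2 ways of averaging differ. Cells with fewer than 4727 UMIs were left out, which kept 319 of 522 preMem and 228 of 232 LZtoDZ cells. For Neil1 the mean shares were 86.7% ± 5.06, 66.8% ± 2.83, 34.9% ± 8.26, 34.0% ± 16.8 and 13.8% ± 6.32 in DZ, LZ, LZtoDZ, preMem and PC. As deposited, the Hmces shares over all cells of DZ, LZ and PC were 98.4%, 84.9% and 50%, and those of Neil1 96.8%, 81.1% and 35.1%, at median depths of 9310, 7784.5 and 18722.5 UMIs. Polh was found in 25.4% ± 2.31 of thinned DZ and 12.2% ± 1.85 of LZ cells. Apex1 was found in 73.2% ± 4.16 of thinned LZtoDZ cells, 33.0% ± 1.12 of LZ and 23.9% ± 1.31 of DZ cells, and Ung in 39.7% ± 4.90, 18.5% ± 0.881 and 13.2% ± 1.87. No state here is known to lack these genes, so the share that stray RNA gives was not measured.

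Over time the members showed no difference that passed. In DZ and in LZ, days 22 and 10, 16 and 10, and 22 and 16 were compared with 2 mice per day, and 0 of 8 members were called by edgeR in any of the 6 comparisons. At an unadjusted p under 0.05 the count was 1 member, Exo1 between days 22 and 10 in LZ (-0.50 ± 0.19, adjusted p = 0.26), and 0 in the other 5. Exo1 had 23.4 and 18.5 CPM in the LZ of the day 10 mice and 13.7 and 15.1 in those of day 22. Over all genes, 0.533% were called between days 22 and 10 in DZ and 1.52% in LZ, 0.178% and 0.4% between days 16 and 10, and 0.0522% and 0.0513% between days 22 and 16. DESeq2 likewise called 0 members in these comparisons.

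Hmces in DZ had 842 and 838 CPM on day 10, 786 and 874 on day 16 and 868 and 858 on day 22, with overlapping days. Neil1 in DZ had 424 and 465.6, 495 and 471, and 490 and 498 CPM, so that both day 10 mice were lowest (log2 difference between days 22 and 10 0.15, interval -0.01 to 0.31). Ung in LZ had 60.3 and 61.3, 55.9 and 52.0, and 60.2 and 58.2 CPM. Both day 16 mice were thus the lowest for Ung in LZ (log2 difference between days 16 and 10 -0.18, interval -0.38 to 0.03). Over all 8 members and 6 comparisons, the log2 differences lay between -0.50 and 0.24 and their 95% intervals between -0.93 and 0.64. For Hmces between days 22 and 10 in DZ the interval was -0.11 to 0.18. The change from day 10 to day 22 did not pass as differing between the zones for any member (0 of 8 by edgeR, 1 at an unadjusted p under 0.05, beside 0.12% of 9968 genes). That member was Apex1, at -0.29 (95% interval -0.57 to -0.01) on the log2 scale.

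**Figure D4:**
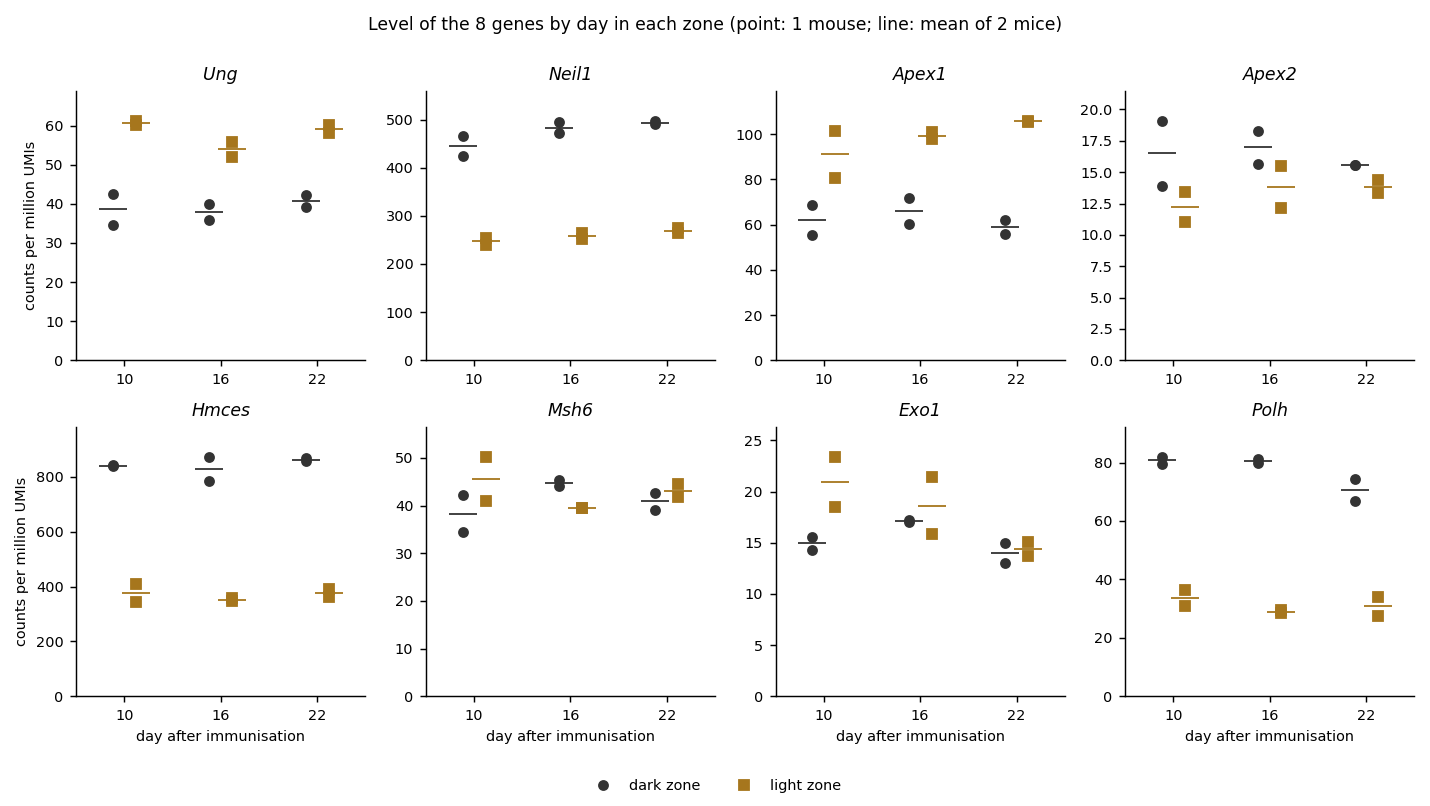
CPM (linear axes from 0) on days 10, 16 and 22 in DZ (black circles) and LZ (brown squares), each point a mouse and each line the mean of 2 mice; each zone was scaled on its own. Hmces, Neil1 and Polh lie higher in DZ than in LZ on each day, and no member differs between days past the adjusted p of 0.05.

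The other genes of these pathways did not move as a block between the zones. Over all cells, 9.35% of all genes were higher in DZ and 10.5% lower. Of 19 further base excision repair genes tested, 2 were higher in DZ and 1 lower. The higher ones were Xrcc1, a scaffold of single-strand break repair (0.55 ± 0.08), and Mbd4, a glycosylase for mismatched uracil and thymine (0.32 ± 0.11). Of 20 further mismatch repair genes 1 was higher, Msh3 (0.51 ± 0.10), a partner in another mismatch complex, and 1 lower, Pold2 (-0.35 ± 0.09), a subunit of polymerase delta. Among 12 further translesion genes 3 were higher, including Poli, polymerase iota (0.91 ± 0.18), and 1 was lower, Mad2l2 (-0.36 ± 0.12). Of 15 genes for AID targeting 1 was higher, the topoisomerase Top1 (0.73 ± 0.11). Of 16 end joining genes 2 were higher, Lig4 (1.00 ± 0.15) and H2afx (0.56 ± 0.18), and 2 lower. None of 10 homologous recombination genes passed over all cells, and within G1, S and G2M 0 of 12 were higher and 1, 0 and 2 lower. Over these 6 lists and all cells, with the members in them, the median log2 difference ran from -0.12 to 0.02, beside 0.00 over all genes. Within G1, S and G2M, end joining genes had 0, 0 and 1 of 16 higher in DZ and 0, 1 and 3 lower. Further translesion genes had 2, 0 and 1 of 14 higher and 0 lower. AID targeting genes had 3, 1 and 2 of 15 higher and 0 lower. Further base excision genes had 1, 1 and 2 of 19 higher and 2, 1 and 2 lower. Further mismatch genes had 2, 1 and 1 of 20 higher and 1, 1 and 2 lower. Of all genes 5.26%, 4% and 5.51% were higher and 6.17%, 5.44% and 5.76% lower.

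In LZtoDZ against LZ, the nucleotide pool list had 7 of 9 genes higher, 1 lower and a median of 0.70 (0.00 over all genes), beside 28.5% of all genes higher and 26.5% lower. Dctpp1 (1.64 ± 0.11), which removes modified nucleotides, and Dctd (2.74 ± 0.25), which makes dUMP, were among those higher, and Samhd1 (-0.97 ± 0.11), which breaks down dNTPs, was lower. Of the 19 further base excision repair genes 5 were higher and 3 lower, a smaller share called than the 54.9% of all genes. Tdg, a glycosylase for thymine and uracil in mismatches, was higher (0.99 ± 0.09), and Mbd4 (-1.01 ± 0.12) was lower. Of the 13 S phase genes higher in LZtoDZ over all cells none stayed higher within S, where 0 of 20 were higher and 6 lower (the phase call may have used them), and the nucleotide pool list had 2 higher and 2 lower of 9, beside 17.7% and 22.7% of all genes. Dctd (2.01 ± 0.30), Dctpp1 (1.10 ± 0.10) and Tdg (0.84 ± 0.12) were higher within S too.

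In PC against LZ within G1, 9 of 19 further base excision repair genes were lower and 2 higher, and 13 of 20 further mismatch repair genes were lower and 1 higher, beside 27.9% of all genes lower and 21.8% higher. Mbd4 (-2.81 ± 0.23), Parp1, the sensor of strand breaks (-1.66 ± 0.15), Xrcc1 (-1.99 ± 0.24), Rfc1, the large subunit of the clamp loader (-2.64 ± 0.14), and Pold1, the catalytic subunit of polymerase delta (-3.23 ± 0.36), were among the lower ones. The list medians were -0.74 for base excision and -0.93 for mismatch repair, members included, beside -0.22 over all genes. In preMem within G1, 5 of the 19 and 5 of the 20 were lower and 0 higher, beside 11.9% and 10.5% of all genes, among them Mbd4 (-0.78 ± 0.14), Xrcc1 (-0.77 ± 0.15) and Rfc2 (-0.59 ± 0.09). Several genes of these lists belong to the S phase list shipped with Seurat, so their differences between phases are not given.

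Across the 30 sums of 6 mice and 5 states, the level most like that of Hmces among 4534 genes was that of Neil1, with Pearson's r of 0.955 on log2 CPM. Next came Dck, deoxycytidine kinase, with r of 0.939 for Hmces and 0.942 for Neil1. Polh had r of 0.792 with Neil1 and 0.752 with Hmces, and the genes most like it were Gdi2 (0.867) and Rassf6 (0.855). Ung and Apex1 had r of 0.834 with each other and Ung and Exo1 0.816, whereas Ung had r of 0.0968 with Neil1. The genes most like Apex1 were Gar1 (0.951), Fbl (0.946) and Serbp1 (0.943), of which the first 2 encode nucleolar RNA-modifying proteins. Those most like Ung were Nutf2 (0.952), Eif2s1 (0.951) and Hells (0.950), and those most like Exo1 Prpf19 (0.928) and Lsm6 (0.909). Apex2 was most like Ing3 (0.931) and Msh6 most like Aacs (0.828). These values describe sums that share mice, wells, pooling and phase makeup, and carry no test.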

How the data were processed

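Draining lymph node cells of 6 mice were profiled with 10x Genomics 5' libraries, and the series lists 21 libraries (16 gene expression, 3 receptor, 2 hashtag), each pooled over mice. Per the submitters' processing notes the authors used Cell Ranger and Seurat with mm10/GRCm38, with no versions given. The deposited matrix holds raw UMI counts (unit: count), whose sums equalled the deposited cell totals in 6619 of 6619 cells. State, phase, day and mouse came from the authors' cell table. The treatment of doublets is not given in the sources used here, and no cell was removed here.

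For each mouse and each state (or state and phase) the counts of its cells were added up if there were at least 10 cells (3 for prePC). These sums entered edgeR 4.0.16 in R 4.3.3, with TMM scaling, its default low-count filter and the quasi-likelihood test. The mouse was a block wherever states or phases of the same mice were compared. Adjusted p-values (Benjamini-Hochberg, every gene of a fit) were called at 0.05, and intervals are 95%. The mouse was the replicate. Sums held 163416 to 6824665 UMIs for states and 143206 to 2769267 for states by phase. The genes named were the 8 members, up to 4 genes of lowest p per pathway list and comparison and up to 3 genes most like each member. Members and lists were chosen with earlier results of these data known. The scripts were tested on simulated data. Alternatives were DESeq2 1.42.0 (size factors, and its own test), no low-count filter, a minimum of 30 cells, leaving out immunoglobulin genes, cells thinned to 4727 UMIs (5957 cells), no block, wells matched to state and each mouse left out. Promoters came from RefSeq. Results for some single genes of the pathway lists are not reported here.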

Additional observations from a re-analysis of the deposited data

Results flagged for a closer look

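In 4 of 48 combinations of gene and state, 1 mouse lay far from the others of its group, where chance alone gives about 1 in 20. Apex2 in prePC was at 12.56 CPM in mouse 2 of day 10 (7 UMIs in 28 cells), and at 0 in the other 4 mice, which had 3 to 6 such cells each. Hmces in prePC was at 257.1 CPM in mouse 1 of day 22 (18 UMIs in 5 cells), against 51.06 to 84.49 in the others. Apex1 in LZ was lowest in mouse 1 of day 10, at 72.62 CPM against 87.93 to 95.17. Hmces in DZ was lowest in mouse 1 of day 16, at 701.6 CPM against 756.3 to 788.2, and all of these lay above the LZ values.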

How the results depend on the processing

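Of 190 results for single members 75 were called, and 62 of these were called under each of the 14 alternatives that could be fitted. Of 1042 values of called results under alternatives, 1009 kept their direction and their call, 33 lost the call and 0 reversed. DESeq2's own test called 75 of 75. The counts of members called moved by over 1.5 times with cells thinned to equal depth: 3 rather than 5 for PC against LZ in G1, and 3 rather than 5 for LZtoDZ against LZ in S. Exo1 and Apex2 fell under the low-count filter in the thinned states and gave no value there. Leaving out 1 mouse at a time gave 5 to 5 calls between the zones, 5 to 7 for preMem and 5 to 6 for PC against LZ, and 6 to 6 for LZtoDZ against DZ. Without the mouse block the count was 5 between the zones, as with it, and 3 rather than 4 between S and G1 of DZ, where Neil1 lost its call. In all, 6 results that missed the threshold passed under some alternative, among them Apex2 between the zones (0.30 with at least 30 cells per sum and with wells matched to state, 0.29 without immunoglobulin genes) and Polh in preMem (-0.61 to -0.74). Another scaling moved the median of all genes by under 0.1 on the log2 scale in every comparison. The background counts over all genes moved more: 2575 genes differed between the zones without immunoglobulin genes and 875 with thinned cells, against 1636. Between days 22 and 10 the counts were 468 in DZ and 276 in LZ with no filter and 238 and 420 without immunoglobulin genes, against 51 and 148. Leaving out 1 mouse gave 17 to 73 in DZ (17 without mouse 2 of day 10, 26 without mouse 1 of day 22) and 25 to 127 in LZ (25 without mouse 1 of day 22, 64 without mouse 2 of day 10, 80 without mouse 2 of day 22). For prePC against LZ they were 332 without mouse 2 of day 10 and 447 with DESeq2, against 689. With 2 mice per day and few PC and prePC cells, small changes were not detectable. In the simulated counts, 49 of 100 genes changed 2-fold were called between days 22 and 10 in DZ. For prePC against LZ the count was 24 of 100, and between the zones 96 of 100.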
